A study of Mus musculus with 2 samples.

Results

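The cornified envelope genes outside the Sprr2 family were described in stomach tissue. Their members were taken by gene symbol: every Lce gene, Sprr1a, Sprr1b, Sprr3 and Sprr4, and 23 further genes of envelope precursors, scaffold proteins and crosslinking enzymes. The rule found 48 of the 43346 mouse genes measured, and it used no measured value. Polyadenylated RNA over 200 nucleotides was sequenced in 2 stranded paired-end libraries with reads of 76 nucleotides. Both come from the stomach of 8-week-old adult C57BL/6J mice, an inbred laboratory strain, and both are pools of male and female littermates. They carry biological replicate numbers 1 and 2, yet 1 donor record is listed for the pair, so it is unknown whether the pools share animals. No treatment, mutation or second tissue is named, and the labels do not say which region of the stomach was taken. All differences below are therefore between these 2 libraries, and no p-value was computed.

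The cornified envelope is a protein shell that replaces the plasma membrane of the outermost cells of stratified squamous epithelia. Transglutaminases join precursor proteins such as involucrin, loricrin, the small proline-rich proteins and the late cornified envelope (Lce) proteins into this shell, beneath which the desmosomal plakins serve as a scaffold. The rodent stomach has a squamous, keratinised region, the forestomach, beside its glandular part. Many of the precursor genes lie side by side in the epidermal differentiation complex.

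Of the 48 members, 36 lay in that complex on chromosome 3, between 92080271 and 93449077 on mm10, and 4 lay on chromosome 7. Most members of the complex shared a compact structure. The coding part of 30 of these 36 genes stood in 1 exon. In Crnn, Flg, Flg2, Hrnr, Rptn and Tchh it spanned more than 1, and the Hrnr transcript measured 11187 bases. The Lce coding parts measured 243 to 546 bases with a median GC content of 63.3%. The 21 Lce genes comprised 14 Lce1 genes, 6 Lce3 genes and Lce6a. Coding identity to the closest Lce gene was 97.3% to 99.3% within Lce3. It was 88.0% to 95.7% for 13 Lce1 genes, but 58.9% for Lce1m and 53.2% for Lce6a. Reads shared between such similar copies were divided by the authors' model, so values of single Lce1 and Lce3 genes are less certain than their sum. The posterior standard deviation of the count passed 1% of the count in 2 of the 39 members at a mean TPM of 1 or more, and its highest value was 1.27%.

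The 300-base promoter windows below are shown because the Lce1 genes moved together between the libraries while Lce1m stood apart, and because Lor and Sprr1a, both precursors of the same shell, differed in that movement. They run from 250 bases before to 50 bases after the annotated start, from RefSeq on GRCm38.p6, and are written 5′ to 3′ on the gene's strand. The minus strand holds Lce1a1 (chr3:92648258-92648557), Lce1b (chr3:92656877-92657176), Lce1m (chr3:93019012-93019311), Lor (chr3:92083093-92083392) and Sprr1a (chr3:92485832-92486131), and the plus strand holds Lce3c (chr3:92944236-92944535). Capitals mark the AP-1 motif TGANTCA, the TATA box word TATAAA and ACTGTCTCAC, the word of 10 bases found in the most Lce1 windows.
Lce1a1: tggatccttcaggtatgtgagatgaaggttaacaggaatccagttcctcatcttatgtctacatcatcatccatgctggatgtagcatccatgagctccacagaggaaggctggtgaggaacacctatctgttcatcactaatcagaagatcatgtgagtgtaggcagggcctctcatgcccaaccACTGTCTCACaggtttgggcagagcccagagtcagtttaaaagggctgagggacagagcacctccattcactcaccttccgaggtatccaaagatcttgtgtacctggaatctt
Lce1b: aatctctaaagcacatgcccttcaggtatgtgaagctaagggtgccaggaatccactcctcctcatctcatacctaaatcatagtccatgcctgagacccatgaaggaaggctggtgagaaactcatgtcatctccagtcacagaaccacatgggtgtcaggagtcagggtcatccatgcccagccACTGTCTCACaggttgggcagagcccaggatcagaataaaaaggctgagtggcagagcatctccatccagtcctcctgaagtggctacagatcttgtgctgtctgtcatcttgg
Lce1m: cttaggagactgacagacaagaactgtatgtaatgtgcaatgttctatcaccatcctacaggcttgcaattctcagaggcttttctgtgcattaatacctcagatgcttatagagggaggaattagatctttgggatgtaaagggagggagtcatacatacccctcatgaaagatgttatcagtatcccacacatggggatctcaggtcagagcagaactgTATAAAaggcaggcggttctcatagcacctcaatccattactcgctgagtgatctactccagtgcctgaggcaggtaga
Lce3c: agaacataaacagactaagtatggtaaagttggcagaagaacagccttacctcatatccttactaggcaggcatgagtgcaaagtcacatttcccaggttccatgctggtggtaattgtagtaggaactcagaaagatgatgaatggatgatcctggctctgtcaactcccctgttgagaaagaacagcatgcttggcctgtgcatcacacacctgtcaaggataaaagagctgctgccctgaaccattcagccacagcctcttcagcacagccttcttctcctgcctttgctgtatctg
Lor: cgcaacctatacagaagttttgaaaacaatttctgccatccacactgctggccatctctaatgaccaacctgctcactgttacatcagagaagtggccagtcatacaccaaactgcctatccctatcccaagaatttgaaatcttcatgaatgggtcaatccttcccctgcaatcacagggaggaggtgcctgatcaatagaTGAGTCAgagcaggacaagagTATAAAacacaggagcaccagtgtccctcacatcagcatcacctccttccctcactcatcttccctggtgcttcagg
Sprr1a: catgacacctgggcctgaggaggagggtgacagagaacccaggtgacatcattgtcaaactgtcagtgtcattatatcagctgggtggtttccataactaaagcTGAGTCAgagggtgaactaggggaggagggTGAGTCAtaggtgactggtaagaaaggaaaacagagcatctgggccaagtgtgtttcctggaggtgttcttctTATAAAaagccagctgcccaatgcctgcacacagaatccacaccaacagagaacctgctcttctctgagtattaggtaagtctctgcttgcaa

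Windows were available for 42 of the 48 members, and each motif was searched on both strands. The AP-1 motif, whose factors are known to act on envelope genes in keratinocytes, stood in 12 of the 22 windowed genes outside Lce. It stood in 0 of the 20 windowed Lce genes, against 7.81% of all 32851 windows. At that share few of 20 windows would hold it, so its absence from Lce lies near the background. Members are counted per gene here, and the background per window. Its matches began at positions -146 to -6 relative to the start, as a pair in Sprr1a and in Sbsn, once in each window of Dmkn, and once in Lor, Sprr1b, Ivl and Krtdap, among others. TATAAA stood in 15 of the 42 genes, against 13.6% of all windows, and on the gene's own strand it began at -53 to -27 in 13 of them. ACTGTCTCAC was picked from these windows themselves. It stood in 9 of 13 Lce1 windows, not in those of Lce1c, Lce1k, Lce1l and Lce1m, in 0 of 6 Lce3 windows and in 0.14% of all windows. It began at -65 to -53, with no overlap with either other motif. Among the Lce1 genes without it, the log2 ratio of replicate 1 over replicate 2 was 1.48 in Lce1c, 1.37 in Lce1k and 1.42 in Lce1l. In Lce1m it was 3.23. Lor and Sprr1a, with ratios of 1.92 and 0.32, both held AP-1 and TATAAA. Whether any motif goes with the ratios was not tested. These are matches of letters and say nothing of binding in the stomach.

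**Figure D1:**
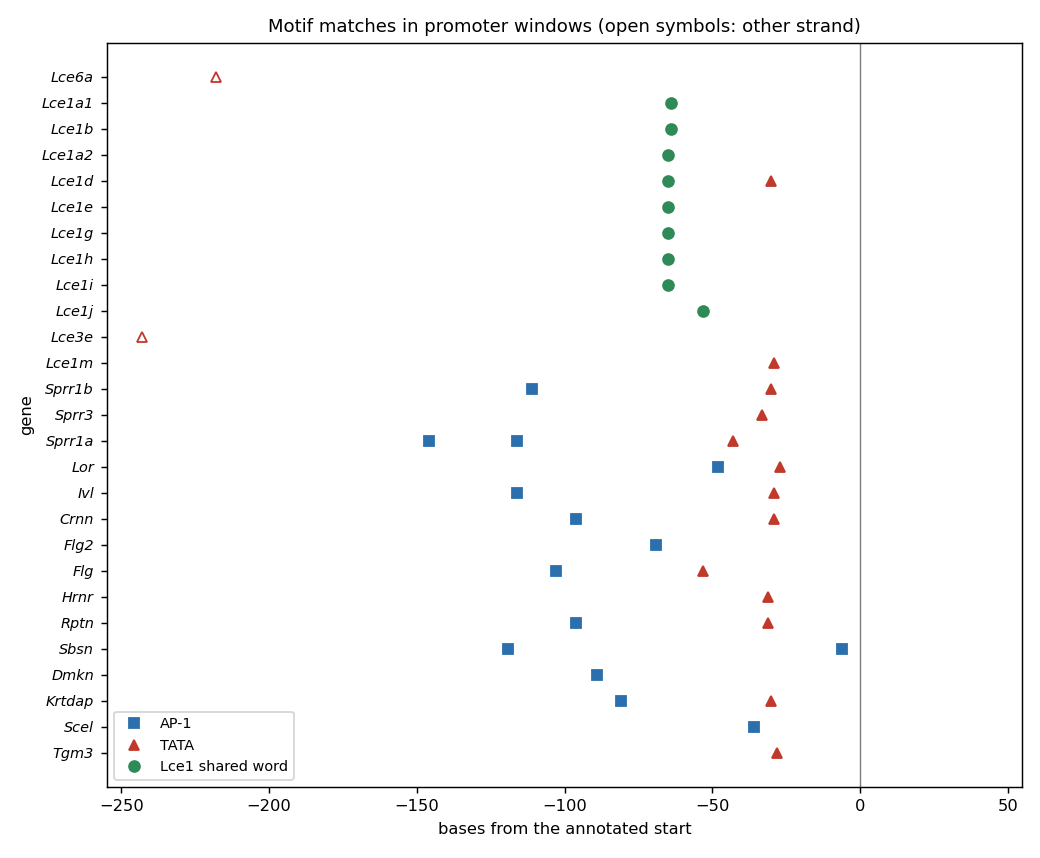
Positions of AP-1, TATAAA and Lce1-word matches (first base, in bases from the annotated start) in the first promoter window of each member with a match. The Lce1 word stacks at -65 to -53, TATAAA on the gene's strand lies at -53 to -27, and AP-1 matches appear only in rows of genes outside Lce.

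The libraries held 52363597 expected read pairs in replicate 1 and 62452468 in replicate 2, at which 3 pairs on a 1 kb transcript equalled 0.0519 and 0.0437 TPM. TPM, the share of a transcript among all transcripts of a library on a common scale, is a level per transcript length, so it can be compared between genes. Of the 48 members, 38 stood at a TPM of 1 or more in both libraries, against 25.2% of all mouse genes and 48.9% of protein-coding genes. The median member had a mean of 81.8 TPM, against 1.15 TPM for protein-coding genes. Taken in each library alone, the members' median was 114 TPM in replicate 1 and 34.5 TPM in replicate 2. Together the members summed to 13599.9 TPM in replicate 1 and 7433 TPM in replicate 2, or 10517 ± 4360.5 TPM (SD, n = 2), which was 1.36% and 0.743% of all transcripts. The Lce genes held 29.9% of the members' sum in replicate 1 and 18.6% in replicate 2. In bulk tissue, fewer squamous cells and less of these RNAs per cell cannot be told apart.

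**Figure D2:**
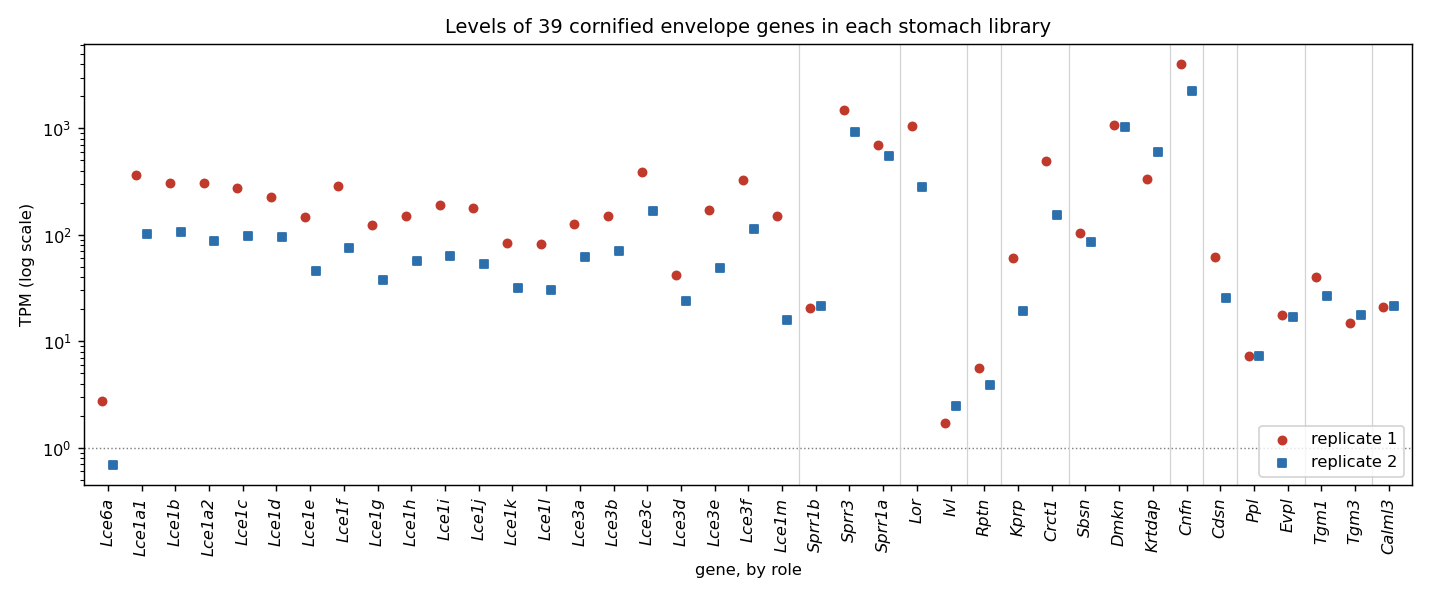
TPM on a log scale of the 39 members with a mean TPM of 1 or more, replicate 1 as circles and replicate 2 as squares, grouped by role (grey lines). Cnfn is highest at 4017 and 2259.8 TPM, and in the Lce block each circle lies above its square.

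Between the libraries the members leaned to replicate 1. Ratios are replicate 1 over replicate 2, on counts scaled with TMM in edgeR, with 95% intervals for counting error only. Of the 39 members at a mean TPM of 1 or more, 23 were at least 2-fold higher in replicate 1, against a background of 5.67% of all genes at that level. None of the 39 was at least 2-fold higher in replicate 2, where the background was 2.77%, and 16 lay within 2-fold. The median log2 ratio of the members was 1.30, against 0.03 for the 11582 genes at that level. The 5th and 95th percentiles of those genes were -0.82 and 1.05. The members higher in replicate 1 were 19 Lce genes, Lor, Crct1, Kprp and Cdsn. By position, 22 of 29 members in the complex passed 2-fold, with a median log2 ratio of 1.49, and 1 of 10 elsewhere did, with a median of 0.08. Of these 22, 19 were Lce genes. Without Lce, 3 of 8 members in the complex passed, with a median of 0.62, and Ivl and Sprr1b had ratios below 0.

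**Figure D3:**
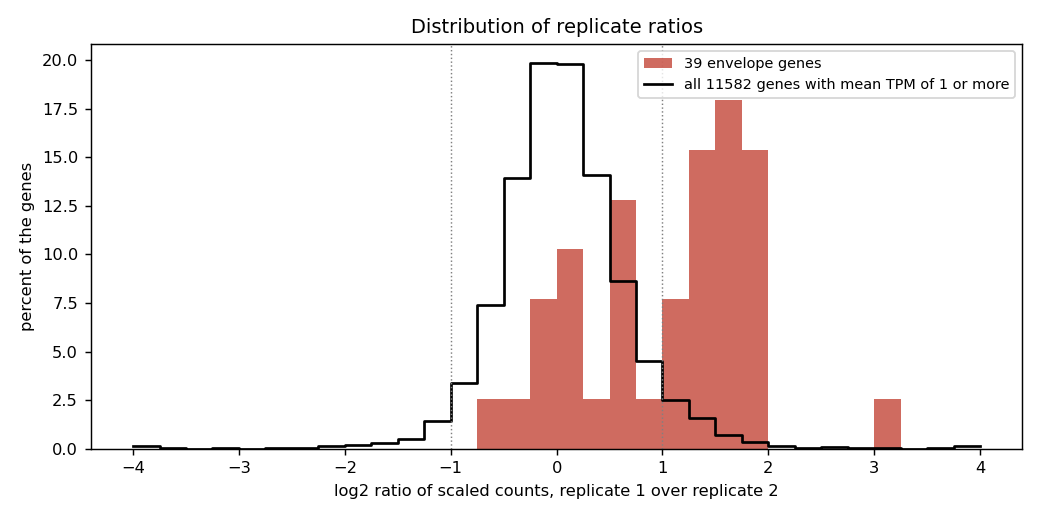
Percent of genes in each log2 ratio bin (replicate 1 over replicate 2), for the 39 members as bars and all 11582 genes with a mean TPM of 1 or more as a line, values beyond the axis placed in the end bins. The members' bars peak between the 2-fold line at 1 and a log2 ratio of 2, while the line peaks at 0.

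Transcript length moved with this pattern across the members, but length and the Lce family went together. Among genes with an effective length under 800 bases, 12.4% were at least 2-fold higher in replicate 1 and 7.02% in replicate 2, and the middle of their log2 ratios was 0.17. Of the members, 20 of 28 shorter than that passed 2-fold in replicate 1 with a median of 1.45, and 3 of 11 longer ones did with a median of 0.54. All 21 Lce genes were among the shorter members, and 19 of them passed. Of the shorter members outside Lce only Crct1 passed, while Sprr1a, Sprr1b, Sbsn, Dmkn, Krtdap and Cnfn did not. The part of length in the members' ratios was not tested. The longer ones that passed were Lor, with a transcript of 1779 bases, Cdsn, with 2678, and Kprp, with 2729.

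The Lce genes, which encode small proteins added late to the envelope, were higher in replicate 1 throughout. All 21 had a log2 ratio above 0 under TMM, and under the other scalings tried. Of all 11582 genes at a mean TPM of 1 or more, 6102 had a ratio above 0 under TMM. The count scalings shift all genes almost alike, by far less than the lowest Lce ratio of 0.74, so they could not change a sign. The median of the Lce genes was 1.50, and 19 of 21 passed 2-fold. They summed to 4070.0 TPM in replicate 1 and 1385 TPM in replicate 2.

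Of the Lce1 genes all 14 passed 2-fold, and for each of them the whole counting interval lay beyond 2-fold. Lce1a1 (chromosome 3, 92646535 to 92648307) was the highest of them, at 360.4 TPM in replicate 1 and 102 TPM in replicate 2. Lce1b had 306 and 106 TPM, Lce1a2 304 and 87.9 TPM, Lce1f 286 and 75.3 TPM, and Lce1c 275 and 97.6 TPM. The first 5 genes by level thus stood at 275 TPM or more in replicate 1 and at 106 TPM or less in replicate 2. Lce1d followed with 227 and 95.04 TPM, Lce1i with 189 and 63.7 TPM, Lce1j with 179 and 52.9 TPM, Lce1h with 149 and 57.2 TPM, and Lce1e with 147 and 46.0 TPM. Lce1g had 124 and 37.5 TPM, Lce1k 82.8 and 31.5 TPM, and Lce1l 82.2 and 30.2 TPM. Without Lce1m, the log2 ratios of the 13 genes ran from 1.23 in Lce1d to 1.91 in Lce1f. Lce1j has 2 transcripts, of which that of 420 bases held 73.2% of the gene's TPM in replicate 1 and 73.1% in replicate 2, and that of 703 bases held 26.8% and 26.9%.

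Lce1m stood apart from its family. It had 149.8 TPM in replicate 1 and 15.7 TPM in replicate 2, from 5760 pairs and 737 pairs of reads. Its log2 ratio of 3.23 (interval 3.12 to 3.35), 9.39-fold, was the highest of all members and lay clear of the other 13 Lce1 genes. Lce1m also differs by position, since it lies at 93017810 to 93019060, beyond the Lce3 genes and next to Crct1.

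The Lce3 genes had log2 ratios from 0.74 to 1.80. Lce3c (chromosome 3, 92944486 to 92945733) was the highest Lce gene, at 389 TPM in replicate 1 and 166 TPM in replicate 2. Lce3f had 327 and 114 TPM, Lce3e 172 and 48.6 TPM, and Lce3b 149 and 70.7 TPM. Lce3a, at 126 and 62.0 TPM, and Lce3d, at 41.5 and 23.9 TPM, were within 2-fold with log2 ratios of 0.98 and 0.74. Lce3a crossed the 2-fold line under DESeq2 size factors (1.00, counted as past it) and under log2(TPM + 1) (1.01), and Lce3b fell just short of it under spike-in scaling (0.9985). Lce6a was near the lower limit, at 2.74 and 0.69 TPM from 45 and 14 read pairs, with a log2 ratio of 1.80 (1.06 to 2.93).

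**Figure D4:**
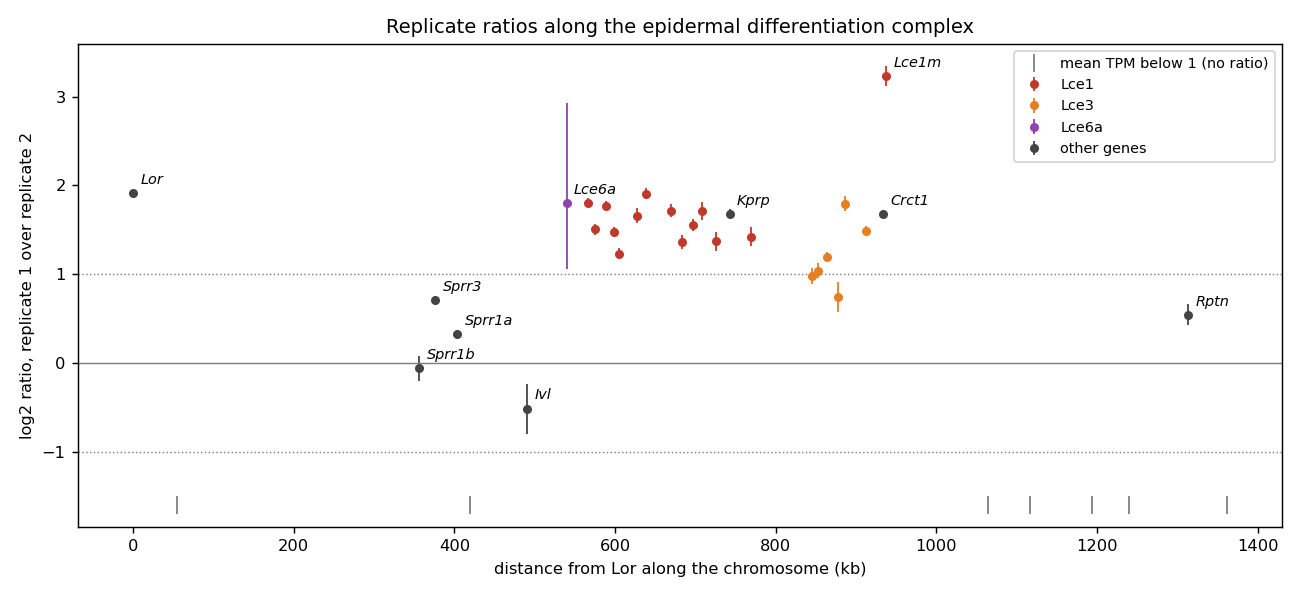
Log2 ratio (replicate 1 over replicate 2) with its 95% counting interval against distance from Lor in kb, for the 29 members of the chromosome 3 complex with a mean TPM of 1 or more (dots) and the 7 below it (grey ticks). Lor, Kprp, Crct1 and nearly all Lce genes lie above the dotted 2-fold line, while the Sprr genes, Ivl and Rptn lie below it.

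Lor and Ivl, the classical precursors, parted. Lor encodes loricrin, the glycine-rich main protein of the epidermal envelope, and lies at 92080271 to 92083142. It had 1056 TPM in replicate 1 and 281 TPM in replicate 2, a log2 ratio of 1.92 (1.90 to 1.94). Ivl encodes involucrin, an early scaffold on which other precursors are joined, and lies at 92570902 to 92573735. It was low in both libraries, at 1.69 and 2.44 TPM, with a log2 ratio of -0.51 (-0.80 to -0.24). Lor was therefore higher and Ivl lower in replicate 1, and the level of Lor was far above that of Ivl in each library. The ratio of Lor lay above the 95th percentile of all genes, 1.05, and that of Ivl lay above the 5th, -0.82.

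The small proline-rich genes, which encode short cross-bridging proteins, stayed within 2-fold, at levels that ran from none to among the highest of the members. Sprr3, known from oral and oesophageal epithelium, had 1496 TPM in replicate 1 and 917 TPM in replicate 2 (log2 ratio 0.71). Sprr1a had 692 and 549 TPM, and Sprr1b had 20.6 and 21.3 TPM, with log2 ratios of 0.32 and -0.06. The intervals of Sprr3 (0.69 to 0.72) and Sprr1a (0.29 to 0.35) lay above 0, and that of Sprr1b (-0.20 to 0.08) held 0. Each of these ratios lay between the 5th and 95th percentiles of all genes, -0.82 and 1.05. Sprr4 had no read pair, which at its short length allowed up to 2.02 TPM in replicate 1 and 1.09 TPM in replicate 2. In the Sprr2 cluster 4 of 9 genes at a mean TPM of 1 or more passed 2-fold in replicate 1, against the same background of 5.67%, and the median log2 ratio was 0.94. These were Sprr2a2, Sprr2a3, Sprr2b and Sprr2f, the last named after its ratio was seen.

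Crct1 and Kprp, cysteine- and proline-rich proteins of the complex, moved by nearly the same amount. Crct1 had 497 TPM in replicate 1 and 153 TPM in replicate 2, and Kprp had 60.5 and 19.0 TPM, and the log2 ratio of both was 1.68. Only 2 read pairs fell on Lelp1, both in replicate 1.

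The genes of the fused S100-type proteins, large calcium-binding proteins of the granular layer that include filaggrin, were low or had no read pair. Rptn, repetin, was the one such gene at 1 TPM or more in both libraries, with 5.57 TPM in replicate 1 and 3.87 TPM in replicate 2. Hrnr, hornerin, had 1.30 and 0.61 TPM from 826 and 437 read pairs, and Flg2 had 0.04 and 0.03 TPM. The junction table held 0 reads over the 3 annotated Hrnr introns, against 36 over those of Rptn. All Hrnr TPM was given to the 11187-base transcript in replicate 1 and to the 10656-base one in replicate 2. Flg and Crnn had no read pair. For Flg a count of 0 allowed 0.012 TPM in replicate 1 and 0.0101 TPM in replicate 2, and for Crnn 0.0448 and 0.0373 TPM. The junction table nevertheless held 6 reads over the 2 annotated Flg introns, which were tied to it by length and spacing alone. Whether these reads come from Flg was not tested. Tchh, trichohyalin of hair follicles, was reached by 3 read pairs, all in replicate 1.

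Cnfn, cornifelin, was the most abundant member and ranked 23 among all mouse genes by mean TPM. It lies on chromosome 7 at 25367620 to 25369724 and had 4017 TPM in replicate 1 and 2259.8 TPM in replicate 2 (log2 ratio 0.71). Its 530-base transcript held 65.5% of the gene's TPM in replicate 1 and 52.3% in replicate 2, and its 723-base transcript held the other 34.5% and 47.7%. In the junction table, which sums the libraries, 36754 reads skipped the internal exon that 40336 and 11038 reads joined on its sides.

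The secreted proteins encoded side by side on chromosome 7, between 30751471 and 30791097, stayed within 2-fold on counts. Dmkn, dermokine, had 1078 TPM in replicate 1 and 1036 TPM in replicate 2, and Sbsn, suprabasin, had 105 and 84.9 TPM. Their log2 ratios were 0.08 and 0.23. Krtdap, a secreted protein of differentiating keratinocytes, had 334 TPM in replicate 1 and 604 TPM in replicate 2. On counts it was lower in replicate 1 by less than its TPM, with 3779 and 5887 read pairs and a log2 ratio of -0.37 (-0.43 to -0.31). The 217-base transcript held 9.97% of its TPM in replicate 1 and 42.6% in replicate 2, from 25.6 and 462 expected read pairs. This short transcript alone had 33.3 TPM in replicate 1 and 257 TPM in replicate 2. The 470-base transcript held 45.4% and 26.8% of the gene's TPM.

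Crosslinking enzymes, scaffold proteins and Calml3 stayed within 2-fold. Tgm1, the membrane-bound transglutaminase of keratinocytes, had 40.2 TPM in replicate 1 and 26.3 TPM in replicate 2 (log2 ratio 0.62). Tgm3, the soluble epidermal enzyme, had 14.9 and 17.5 TPM (log2 ratio -0.22), and Tgm5 had 0.40 and 0.68 TPM. Tgm1 thus leaned to replicate 1 and Tgm3 to replicate 2, both between the 5th and 95th percentiles of all genes, -0.82 and 1.05. Among the plakins, which link the envelope to desmosomes and keratin, Evpl (envoplakin) had 17.7 and 17.1 TPM and Ppl (periplakin) had 7.32 and 7.20 TPM. Scel, sciellin, had 0.85 and 0.78 TPM. Calml3, a calmodulin-like protein of epithelia, had 20.9 and 21.3 TPM, with a log2 ratio of -0.02 that was 0.01 under DESeq2 size factors. Cdsn, corneodesmosin of the modified desmosomes between cornified cells, was the exception outside the complex, with 62.5 and 25.6 TPM and a log2 ratio of 1.30 (1.25 to 1.36).

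**Figure D5:**
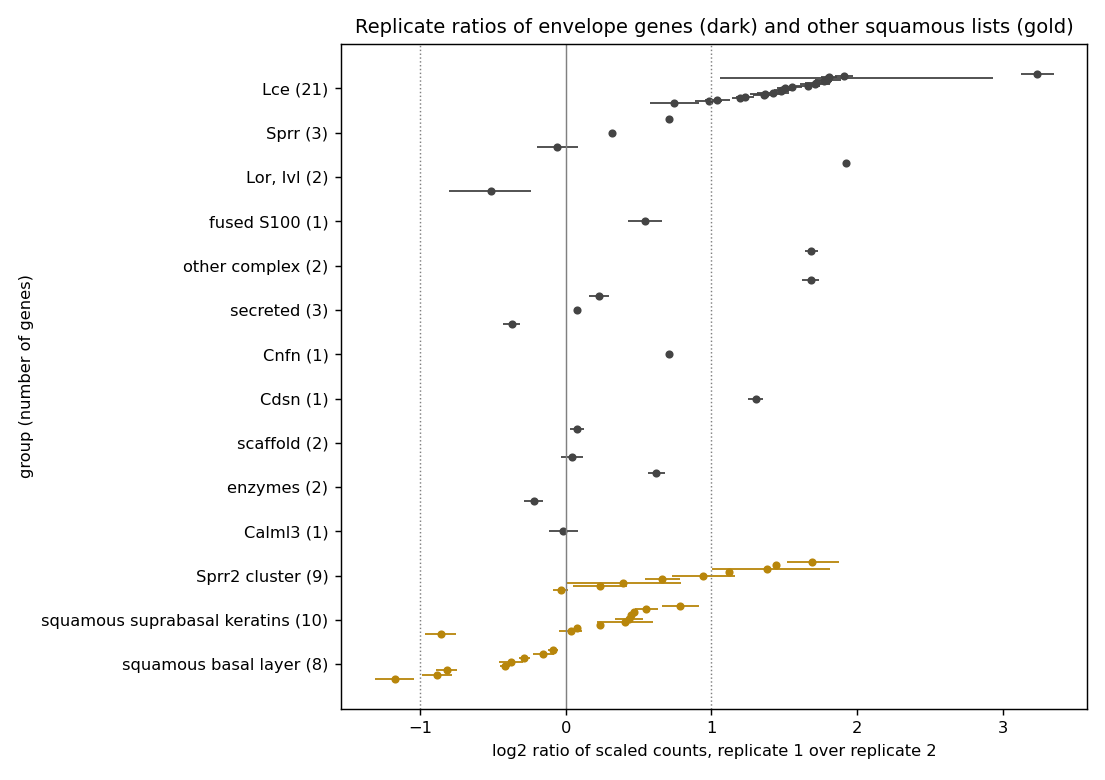
Log2 ratios (replicate 1 over replicate 2) with 95% counting intervals for the members by role (dark) and for other squamous lists (gold), each point a gene. Lce genes lie to the right of 0, scaffold genes near 0, and the basal-layer genes to the left of 0.

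Around the TPM limit of 1, Lce6a at a mean of 1.72 and Ivl at 2.07 TPM lay just above, and Hrnr at 0.955, Scel at 0.815 and Tgm5 at 0.54 TPM just below.

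Splice junctions could be tied to 45 of the 47 members with an intron in any M21 transcript, by intron lengths and spacing alone, and 40 of the 45 had reads. All 21 Lce genes had reads over their intron, from 284 to 3957 at the most used one apart from Lce6a with 12. Sprr1a had 19914 reads over its single intron and Lor 1826. Sprr3 differed from its model. Its annotated 997-base intron had 10 reads, whereas an intron of 1133 bases with the same donor and an acceptor 136 bases further 3′, which GENCODE M21 does not list, had 2163. Lce1m likewise had 931 reads over the annotated 377-base intron and 2266 over one of 381 bases whose donor lay 4 bases away. Both Sprr3 and Lce1m were picked here after their junction counts were seen. The tie has a limit, shown by Dmkn. A junction of 391 bases counted there as unlisted had 6155 reads, while the annotated Dmkn intron of 391 bases had 0. Whether these are the same intron, misplaced by the tie, was not tested. Inside Lor, 1253 unlisted junctions summed to 7099 reads, with 755 on the most used.

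The stomach libraries held both squamous and glandular markers. All 8 genes of the squamous basal list were detected, and in replicate 1 their summed level was 306 TPM, against 378 TPM in replicate 2. All 8 had a log2 ratio below 0 under TMM, with a median of -0.40, although Dst turned to the other side under log2(TPM + 1). Krt15, a basal keratin, was the gene of this list at least 2-fold higher in replicate 2 (7.10 and 16.2 TPM), and it and Dst are named because of their ratios. Of 10 suprabasal keratins at a mean TPM of 1 or more, 9 had a ratio above 0 under TMM and 8 under spike-in scaling, with a median of 0.42 and none past 2-fold. Of all 11582 genes at that level, 6102 had a ratio above 0 and 5478 below 0 under TMM.

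The keratins of the mucosal type were present beside those of the epidermal type. Krt13 had 629.7 TPM in replicate 1 and 544 TPM in replicate 2, and Krt4 had 556 and 411 TPM. Krt10 had 397 and 289.6 TPM and Krt1 had 284 and 272 TPM, whereas Krt2, a keratin of the upper epidermis, had no read pair. Of 11 hair and nail keratins none reached 1 TPM, and the list summed to 1.02 TPM in replicate 1 and 0.93 TPM in replicate 2. The 12 glandular genes summed to 164099.9 TPM in replicate 1 and 209411 TPM in replicate 2, with 6 on each side of 0. Cd207, langerin of epidermal Langerhans cells, was at 0 and 0.10 TPM. Other genes of that list differed, with Epcam at 79.2 and 40.4 TPM, Cd1d1 at 0.99 and 1.28 TPM and Itgae at 0.48 and 0.25 TPM. These genes alone do not tell whether Langerhans cells were present. The part of these lists in the members' ratios was not tested.

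Other genes of cornification followed the members only in part. Of 20 transcription factors known from envelope gene control, 4 were at least 2-fold higher in replicate 1 and none in replicate 2, against 5.67% and 2.77% of all genes, the background for each count here. These were Cebpb, with 455 and 142 TPM, Cebpa, with 84.0 and 34.2 TPM, Hopx, with 70.9 and 30.6 TPM, and Barx2, with 33.9 and 16.4 TPM. Hopx and Barx2 are named because their ratios were seen to pass, as are Cst6 and Dsg3 below. Klf4, a factor needed for the skin barrier, had 255 and 241 TPM. Of 15 lipid envelope genes at a mean TPM of 1 or more, none passed 2-fold, and the median log2 ratio was 0.23. Of 12 genes of envelope proteases, their inhibitors and deiminases, Cst6, cystatin E/M, passed it (47.8 and 23.7 TPM, log2 ratio 1.03), and did not under spike-in scaling or log2(TPM + 1). Of 9 desmosome genes, 0 passed 2-fold in replicate 1 and Dsg3, a desmosomal cadherin, did in replicate 2 (1.60 and 3.46 TPM), though not under log2(TPM + 1).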

How the data were processed

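The authors deposited expected counts of read pairs and TPM values per gene and per transcript, 1 table per library, made from transcriptome alignments on mm10 with GENCODE M4 models, per the README beside the tables. Column names are those of RSEM, and none of the sources used here gives the aligner or a version. A posterior mean TPM and a posterior SD of the count, also deposited per the file headers, served as an alternative and as a measure of shared reads. The deposited splice junction table on mm9 holds whole-number counts that sum the libraries, and the contig table was not used.

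Symbols and mm10 positions came from GENCODE M21 through unversioned IDs, which 98.0% of 43346 mouse gene IDs matched. Spike-ins, 1.14% of pairs in replicate 1 and 1.12% in replicate 2, stayed out of library sizes. Expected counts were rounded and scaled with TMM in edgeR 4.0.16, and log2 CPM ratios used a prior count of 2. Clopper-Pearson intervals at 95%, and floors of 3 pairs, cover counting error only. Ratios were described for genes with a mean TPM of 1 or more, and a 2-fold limit stood in place of a test, since 1 group of 2 libraries allows no contrast. Alternatives used DESeq2 1.42.0 size factors, library totals, spike-ins, TPM ratios, other minimums and each library alone. The ratio was tested on simulated counts with known changes.

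Every member with a mean TPM of 1 or more was named, with those below it that had reads in both libraries. Isoforms were described for members with 2 transcripts at 10% or more of the gene and a mean TPM of 5 or more. Members, lists and rules were chosen with earlier results of these data known. No junction coordinates were converted: genes were tied where 2 or more introns, of 1 gene or of neighbouring members on the chromosome, matched junctions in length, strand and spacing.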

Additional observations from a re-analysis of the deposited data

How the results depend on the processing

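No paired analysis was possible because the study has 1 group of 2 libraries. The 38 members at 1 TPM or more in both libraries were 38 to 40 in a library alone, 41 when TPM was taken relative to the total without the 2 most abundant genes, 36 at a minimum of 5 TPM and 43 at 10 or more read pairs in both. The summed level of 10517 TPM was 7433 to 13599.9 TPM in a library alone and 16145 TPM relative to the total without the 2 most abundant genes. The median level of 81.8 TPM was 34.5 to 114 TPM in a library alone. The median log2 ratio of 1.30 was 1.26 to 1.33 under the other count scalings and a minimum of 5 TPM, 1.25 with log2(TPM + 1), and 1.19 with no TPM minimum. The 23 members past 2-fold in replicate 1 were 22 to 26, and 0 passed it in replicate 2 under every alternative run. Of 156 ratios of single members under an alternative, none of a member past 2-fold changed sign, 13 left their counting interval, and the cause was not tested. The count scalings shift all genes almost alike and by little, so they could not change the sign of a member past 2-fold. Depth limits Lce6a, Sprr4 and the members with few read pairs, and a pair of libraries limits every statement on spread.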
